A study of Mus musculus with 19 samples.

Results

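This report describes 10 genes of the NF-κB pathway in hepatic stellate cells (HSCs) during their first hours in culture. The members were chosen by name, with earlier results of these data known. They are the inhibitor and feedback genes Nfkbia, Tnfaip3, Nfkbiz and Bcl3, the subunit genes Nfkb1, Nfkb2, Rela and Relb, and the adhesion genes Icam1 and Vcam1. Each symbol matched 1 row of the deposited count table, so the 10 genes are 10 of its 55487 rows, and all 10 were among the 15138 genes that passed the filter on low counts. Bulk 3′ RNASeq was measured in 19 samples of HSCs from untreated, healthy male Balb/c mice of 23 to 24 weeks, sorted by the ultraviolet fluorescence of their vitamin A. The freshly isolated cells were collected without plating (0 h, 2 samples). The cultured cells were kept on collagen in DMEM with 10% serum for 3, 6, 12, 18 and 96 h (3 samples each) or 24 h (2 samples), and their medium was renewed at 3 h and at 24 h. Each sample stands for 2 technical repeats and carries a replicate number from 1 to 3 in its label. Samples 1 and 3 of every time have one isolation date and samples 2 another, number 1 is missing at 0 h and number 3 at 24 h. What the number itself marks and how many mice stand behind a sample are not given in the sources used here, and the flat culture stands for HSC activation in the liver only in part.

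NF-κB is a family of dimeric transcription factors that wait in the cytoplasm, held there by inhibitor proteins of the IκB family. Signals from receptors of tumour necrosis factor, interleukin and microbial products activate a kinase complex that marks the inhibitors for degradation, and the freed dimers switch on their targets in the nucleus. Several of these targets are inhibitors of the pathway itself, and others are chemokines and adhesion molecules with which activated HSCs and vascular cells attract and hold leukocytes.

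The regulatory letters that give this family its name can be read in some of the promoters. RefSeq windows of 250 bases before to 50 bases after a start site (GRCm38.p6) were at hand for 6 members, namely Nfkbia, Tnfaip3, Bcl3, Nfkb2, Rela and Icam1. These 6 genes had 9 windows, since Nfkb2 has 3 and Tnfaip3 2 start sites. On either strand, the 10-letter κB consensus occurred in 6 of the 9 windows, belonging to 4 genes, and in 8.46% of the 32817 windows of all genes. Windows of one gene can overlap, and 2 windows of Nfkb2 share a match, so the 6 windows are not separate hits. The windows of Rela and Icam1 did not hold these letters, which says nothing about binding outside the windows. The levels of all 6 genes are given below. The stretches around the matches are shown for the 4 genes that hold one. They run 5′ to 3′ on the strand of the gene, and capitals mark the matches.
Nfkbia, chr12:55492648-55492767, minus strand: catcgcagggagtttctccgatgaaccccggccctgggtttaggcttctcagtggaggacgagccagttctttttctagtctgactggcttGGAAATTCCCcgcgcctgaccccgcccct
Tnfaip3, chr10:19015411-19015540, minus strand: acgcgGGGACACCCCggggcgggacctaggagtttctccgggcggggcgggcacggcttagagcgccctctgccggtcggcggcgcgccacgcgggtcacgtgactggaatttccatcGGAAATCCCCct
Nfkb2, chr19:46304687-46304716, plus strand: gggatcgtcacGGGAATTCCCCccctcggg
Bcl3, chr7:19822741-19822770, minus strand: agttcagtcggcggcagGGGAAGTCCCgct
The match of Nfkbia began 29 bases before the start site, those of Tnfaip3 125 and 12 bases before it. In the Nfkb2 stretch shown, 2 overlapping matches began 39 and 38 bases before the start site. Another match of the same window, outside the stretch shown, began 11 bases before it. The other 2 windows of Nfkb2 overlap each other and held 3 more matches, 2 of which are the same site counted in both windows. In Bcl3 the match began at base 3 of the transcript. These matches describe letters only, and no binding was measured.

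Gene positions below are those of GENCODE M21 on GRCm38. Levels are given as TMM-scaled CPM, counts relative to the library total. Total counts lay between 2073171 and 7690892 per sample, so that 3 counts, taken as the smallest level that could be shown, correspond to between 0.385 and 1.504 CPM. The 12 stellate cell markers together had 28695 to 32581 CPM at 0 h, and none of them was at 0 in both samples. Gfap had 0 CPM in one sample and 17.3 CPM in the other. The sum was 27613 to 32953 CPM at 3 h, and then 17389 to 18693 CPM at 6 h and 4941 to 5854 CPM at 12 h. It was 1976 to 1980 CPM at 24 h and 2842 to 3226 CPM at 96 h. Dcn alone had a mean of 19152 CPM at 0 h, so the sum leans on this gene and single markers can differ from it. The sum of 7 hepatocyte markers, 3351 to 7303 CPM at 0 h, was 419 to 1204 CPM at 3 h and at most 335 CPM later. The 10 Kupffer cell and macrophage markers summed to 327 to 394 CPM at 0 h, 188 to 358 CPM at 3 h and at most 60.2 CPM later. From 6 h on, between 5 and 8 of them were at 0 in all samples of a time. The 8 sinusoidal endothelial markers summed to 542 and 767 CPM at 0 h and to 2574, 808 and 814 CPM in replicates 1, 3 and 2 at 3 h, and replicate 1 stayed the highest at every later time. Lymphocyte markers summed to at most 8.28 CPM and cholangiocyte markers to at most 14.5 CPM. The part of these other cells in the results below was not tested, and in bulk samples fewer cells of a type and less RNA per cell cannot be told apart.

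After 3 h of culture, the NF-κB genes stood at their highest. The mean CPM peaked at 3 h for all 10 members, against 15.4% of all genes tested. Of the 30 pairs of a gene and a replicate number, 27 had their maximum at 3 h, and the other 3 (Nfkb1 in replicates 1 and 3, Vcam1 in replicate 2) at 6 h. These pairs count the same 10 genes again, and the share of all genes by this count is not given here. Replicate 1 has no sample at 0 h and replicate 3 none at 24 h. Compared with 0 h, 8 of the 10 members were called higher at 3 h and none lower, where 4.19% of all genes tested were called higher. A call required an adjusted p below 0.1 in edgeR's quasi-likelihood test and a fold change above 2, and log2 fold changes are given with their standard error (SE). In all 10 genes every sample at 3 h exceeded both samples at 0 h, which held for 17.1% of all genes. It follows from this that all 10 were higher within each of the 2 replicate numbers that have a sample at 0 h, which adds no further support. The median log2 fold change at 3 h was 2.86 over the members and 0.00 over all genes. Every comparison with 0 h rests on the same 2 samples, so these comparisons are not independent of each other. Since the members were chosen with earlier results of these data known, the shares of all genes beside them serve as description only.

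**Figure D1:**
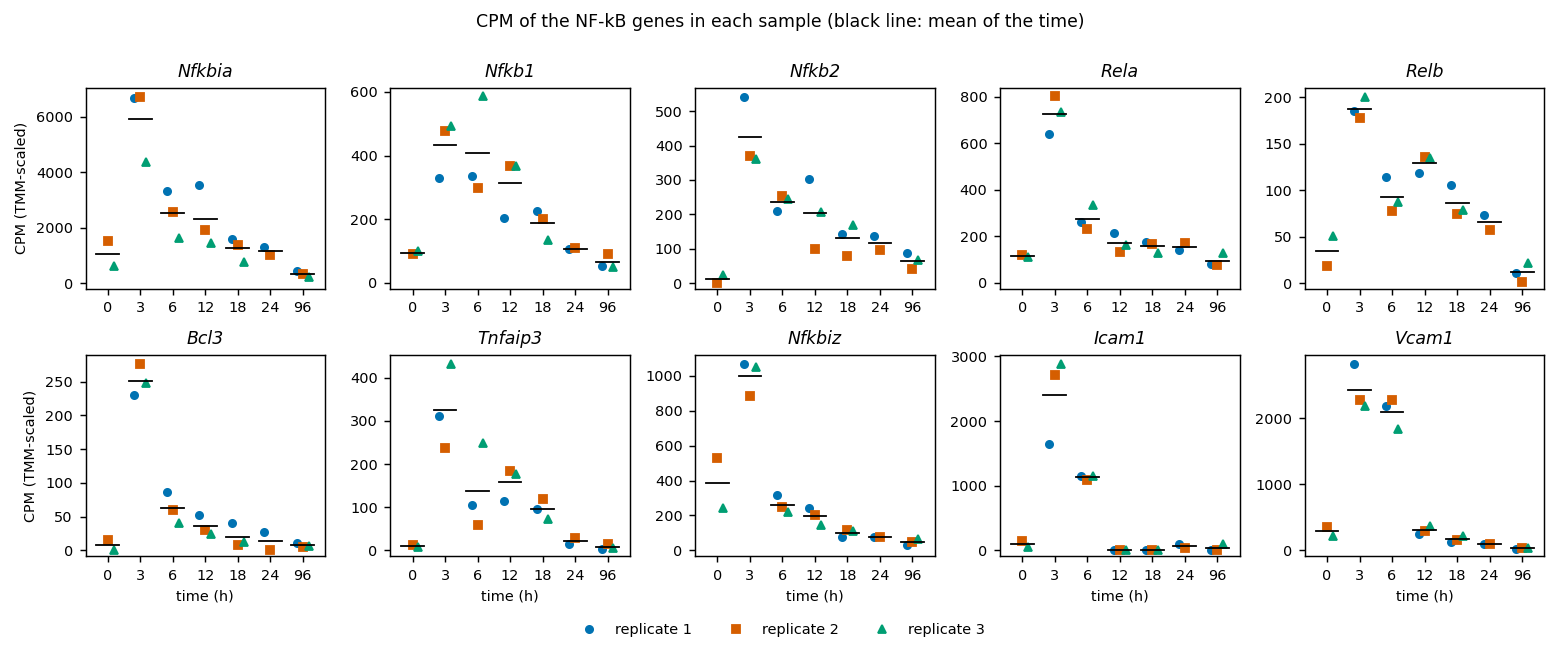
CPM of each NF-κB gene (vertical axes, linear, 1 scale per gene) against time in culture in hours (horizontal axes, evenly spaced), with 1 symbol per sample, coloured by replicate number, and a black line at the mean of each time. All 10 genes have their highest mean at 3 h, and Icam1 lies at or below 8.03 CPM at 12 and 18 h.

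Nfkbia (chr12:55489410-55492647), the gene of the inhibitor IκBα that binds NF-κB dimers in the cytoplasm, had the following levels. At 0 h it measured 619 and 1507 CPM in replicates 3 and 2, and at 3 h 6690, 4365 and 6736 CPM in replicates 1, 3 and 2. The samples of both times were clearly apart, with replicate 3 the lowest at each time it was sampled. At 3 h the gene was higher by 2.48 on the log2 scale (SE 0.50, edgeR adjusted p = 0.00714). The change was 1.97 with an adjusted p of 0.109 when the sample of replicate 3 at 0 h was left out of the edgeR fit. At 6 h Nfkbia measured 1641 to 3340 CPM, below all samples at 3 h, but this step of -1.24 was not called (edgeR adjusted p = 0.126). With the replicate number as a block the same step was -1.28 and was called (edgeR adjusted p = 0.00102). In all, 5 of 8 alternatives called this step, DESeq2 among them (-1.38, adjusted p = 0.00968), and 3 of 19 fits with one sample left out did. By 96 h Nfkbia measured 221 to 450.5 CPM, below both samples at 0 h, and was lower by -1.67 (SE 0.45, edgeR adjusted p = 0.0262). That call was lost without replicate 2 at 0 h (adjusted p = 0.444) or replicate 3 at 96 h (edgeR adjusted p = 0.111).

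Tnfaip3 (chr10:19000910-19015657) encodes A20, a ubiquitin-editing enzyme that shuts down signalling upstream of the inhibitors. Its samples measured 7.02 and 13.5 CPM at 0 h, and 310, 431 and 237 CPM at 3 h. No sample at 3, 6, 12 or 18 h came down to the level of 0 h, whereas 14.6 and 29.3 CPM at 24 h and 2.29 to 13.8 CPM at 96 h did lie near it. Tnfaip3 was called higher at 3 h (log2 fold change 4.96, SE 0.78, edgeR adjusted p = 0.00105), at 6 h (3.71, SE 0.74), at 12 h (3.92, SE 0.74) and at 18 h (3.19, SE 0.72). These 4 calls were kept whichever sample was left out and under every alternative tried. The spread was large at 6 h, where replicate 3 had 249 CPM and replicate 2 had 58.0 CPM.

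Nfkbiz (chr16:55811375-55838899) encodes IκBζ, an atypical nuclear member of the inhibitor family that acts as a cofactor at selected targets. It was already at 243 and 529 CPM at 0 h, and measured 1066, 1051 and 883 CPM at 3 h. The rise of 1.37 (SE 0.36, edgeR adjusted p = 0.0393) was the smallest of the members at 3 h, and without replicate 3 at 0 h it was 0.91 and not called (edgeR adjusted p = 0.408). Nfkbiz fell by 1.93 on the log2 scale (SE 0.32, edgeR adjusted p = 0.00276) between 3 h and 6 h, where it measured 221 to 316 CPM. At 12 h it had 148 to 242 CPM. From then on all samples lay below both samples at 0 h, with 75.7 to 120 CPM at 18 h, 75.0 and 75.2 CPM at 24 h and 28.6 to 63.9 CPM at 96 h. The log2 fold changes against 0 h were -1.92 at 18 h, -2.36 at 24 h and -3.03 at 96 h, and all 3 were called, also with any sample left out.

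Bcl3 (chr7:19808462-19822770) encodes a nuclear protein related to the inhibitors that binds the subunits made by Nfkb1 and Nfkb2. It had 0 and 15.3 CPM at 0 h and 230, 249 and 276 CPM at 3 h. Despite this gap the change was not called, with a log2 fold change of 4.97, an SE of 1.61 and an edgeR adjusted p of 0.113. Without the sample at 0 counts the log2 fold change was 4.03, also not called. Other settings gave a call. DESeq2 called it (adjusted p = 0.0043), as did edgeR on only the 2 times (0.0676), on thinned counts (0.0517) and without the filter (0.0805). It was also called without replicate 1 or replicate 2 at 24 h (log2 fold change 4.97 and 4.96). Without replicate 2 at 0 h only the sample at 0 counts remained for that time, and the log2 fold change was 13.3. The samples at 24 h themselves were split, at 27.6 and 0 CPM in replicates 1 and 2.

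Among the subunits, Rela (chr19:5637483-5648130), whose protein carries a transactivation domain and forms the classical dimer with the product of Nfkb1, showed a narrow peak. It measured 111 and 120 CPM at 0 h, 641, 733 and 803 CPM at 3 h and 231 to 333 CPM at 6 h. The 3 times did not overlap, and from 12 h on all samples lay between 75.7 and 215 CPM. Rela was higher by 2.65 at 3 h (SE 0.29, edgeR adjusted p = 3.68e-05) and by 1.26 at 6 h (SE 0.27, adjusted p = 0.00663), and it fell by 1.40 between 3 and 6 h (SE 0.24, edgeR adjusted p = 0.0034).

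Nfkb1 (chr3:135584655-135691547) encodes the precursor of a DNA-binding subunit without a transactivation domain of its own. Its values were 99.8 and 90.1 CPM at 0 h, 331, 493 and 479 CPM at 3 h, 337, 587 and 298 CPM at 6 h, and 205, 369 and 368 CPM at 12 h. Here the level at 6 h was 93.8% and at 12 h 72.3% of the mean at 3 h, and the samples of these 3 times overlapped. The log2 fold changes against 0 h were 2.19 at 3 h (SE 0.38, edgeR adjusted p = 0.00249), 2.10 at 6 h (adjusted p = 0.00175) and 1.73 at 12 h (adjusted p = 0.00471). By 24 h the samples had 106 and 109 CPM. An unnamed gene model that lies within Nfkb1 on the same strand, Gm43430, held 2677 counts against 22600 of Nfkb1, and reads of the pair cannot be separated with certainty.

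Nfkb2 (chr19:46304320-46312385) encodes the precursor of the subunit of the non-canonical pathway. Its samples at 0 h had 24.6 and 0 CPM, against 542, 360 and 369 CPM at 3 h, 210 to 254 CPM at 6 h and 98.1 to 301 CPM at 12 h. All samples up to 96 h, where it had 39.6 to 86.2 CPM, stayed above both samples at 0 h. Nfkb2 was called higher at 3, 6, 12, 18 and 24 h, with log2 fold changes of 5.20 (SE 1.09, edgeR adjusted p = 0.00959), 4.36, 4.13, 3.49 and 3.32. The sizes rest in part on the sample at 0 counts, and without it they were 4.14, 3.26, 3.04, 2.33 and 2.21, all still called. When only the 2 times compared were fitted, none of the 5 calls was kept (edgeR adjusted p from 0.108 to 0.365), and the one at 24 h (adjusted p = 0.0653) was also lost without either sample at 24 h.

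Relb (chr7:19606217-19629438) encodes the usual partner of the Nfkb2 product. It measured 50.6 and 18.0 CPM at 0 h, 185, 200 and 177 CPM at 3 h, 77.0 to 114 CPM at 6 h and 118, 135 and 135 CPM at 12 h. The rise at 3 h was 2.46 (SE 0.69, edgeR adjusted p = 0.0557) and that at 12 h 1.93 (SE 0.67, adjusted p = 0.0697). Neither was called without replicate 2 at 0 h (adjusted p of 0.38 and 0.397 in edgeR), and the one at 12 h also not without replicate 3 or replicate 2 at 12 h (0.126 and 0.135). At 96 h Relb had 11.2, 21.5 and 1.54 CPM, and it fell by 2.51 on the log2 scale from 24 h (SE 0.63, edgeR adjusted p = 0.0519). This call was lost without either sample at 24 h or replicate 1 at 96 h (edgeR adjusted p from 0.149 to 0.238), and when only these 2 times were fitted (adjusted p = 0.25).

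**Figure D2:**
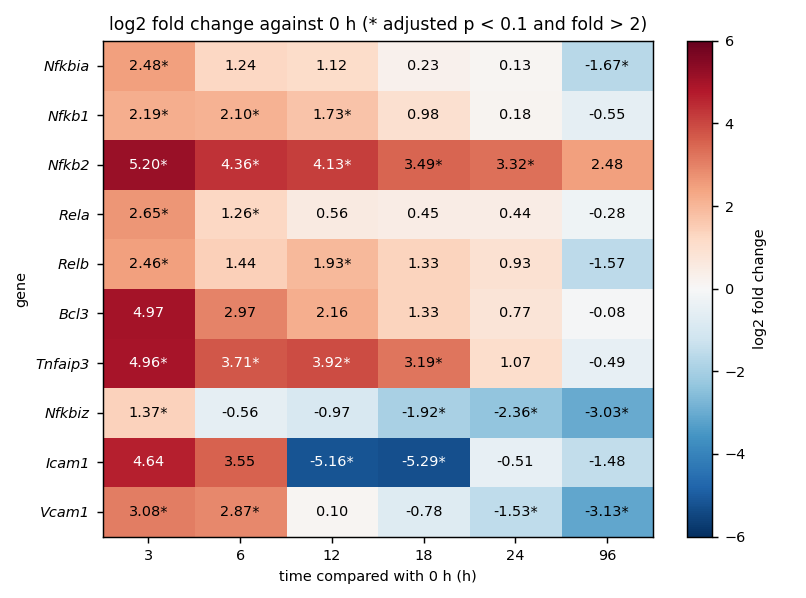
Fitted log2 fold change of each gene (rows) at each time in hours against 0 h (columns), written in each cell and coloured from blue (lower) to red (higher), with an asterisk where the change was called. All 10 values are positive at 3 h, 8 of them called, while at 96 h Nfkbia, Nfkbiz and Vcam1 were called lower and none higher.

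The adhesion genes were high at 3 and 6 h and had lost most of that level by 12 h. Vcam1 (chr3:116109949-116129688) encodes a cell surface ligand for an integrin of leukocytes, and Icam1 (chr9:21015985-21028817) the ligand of another group of leukocyte integrins. Vcam1 had 220 and 355 CPM at 0 h, 2819, 2192 and 2271 CPM at 3 h, and 2188, 1833 and 2282 CPM at 6 h. It then measured 254, 373 and 301 CPM at 12 h, 132, 215 and 154 CPM at 18 h, 97.9 and 101 CPM at 24 h, and 26.9, 39.2 and 32.1 CPM at 96 h. The samples of 3 and 6 h thus formed a plateau, the level at 12 h overlapped that of 0 h, and from 18 h on every sample lay below both samples at 0 h. Vcam1 was higher by 3.08 at 3 h (SE 0.28, edgeR adjusted p = 7.8e-06) and 2.87 at 6 h (SE 0.28, adjusted p = 5.79e-06). It fell by 2.76 on the log2 scale between 6 and 12 h (SE 0.23, edgeR adjusted p = 3.39e-05). Against 0 h it was lower by -1.53 at 24 h (SE 0.28, edgeR adjusted p = 0.00181) and by -3.13 at 96 h (SE 0.25, adjusted p = 7.43e-07). At 18 h the change of -0.78 had an edgeR adjusted p of 0.0451 but not the required fold. This change was called in DESeq2 (-1.03, adjusted p = 0.00038), 1 of 8 alternatives. It was also called without replicate 3 at 18 h (-1.01, edgeR adjusted p = 0.0178), and it was -1.13 without replicate 3 at 0 h. Apart from this change at 18 h, the called changes of Vcam1 were kept with any sample left out. Replicate 1 at 3 h had the highest sum of endothelial markers and also the highest Vcam1 of that time. Without that sample the change at 3 h was 2.99 (edgeR adjusted p = 3.36e-05), and the part of endothelial cells was not tested.

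Icam1 measured 51.6 and 140 CPM at 0 h, 1641, 2877 and 2710 CPM at 3 h, and 1152, 1145 and 1086 CPM at 6 h. At 12 h it was down to 2.78, 5.06 and 0 CPM, and at 18 h to 8.03, 0 and 0 CPM. The samples at 24 h had 93.2 and 42.2 CPM, and at 96 h replicate 3 had 102 CPM while replicates 1 and 2 had 0. A 3′ library counts tags at transcript ends that fall in the annotated gene, so these near-zero levels and the step below are those of such tags, and transcripts ending elsewhere were not measured. The samples at 3 and 6 h thus lay above all others, those at 12 and 18 h below both samples at 0 h, and those at 96 h were split. The level at 12 h was 0.108% of the mean at 3 h, the lowest share of the 10 genes, and the fitted step from 6 to 12 h was -8.70 (SE 1.96, edgeR adjusted p = 0.038). Within replicate numbers 1, 2 and 3 taken singly, the log2 ratio of CPM + 1 for this step was -8.25, -10.09 and -7.56. The call was nevertheless lost without any 1 of the samples at 12 h (adjusted p from 0.119 to 0.135 in edgeR).

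Against 0 h, the difference of Icam1 at 3 h was not called, although its log2 fold change was 4.64 (SE 1.90, edgeR adjusted p = 0.243), and neither was that at 6 h (3.55, adjusted p = 0.258). Icam1 at 6 h was called in a fit of the 2 times alone (3.67, edgeR adjusted p = 0.0173) and without replicate 3 at 96 h (adjusted p = 0.0931). At 3 h it was called when only the 2 times were fitted (edgeR adjusted p = 0.0141), on thinned counts (0.0992) and without replicate 3 at 96 h (0.0606), the sample that differs from its replicates. The lower level against 0 h was called at 12 h (-5.16, SE 1.78, edgeR adjusted p = 0.0661) and at 18 h (-5.29, SE 1.82, adjusted p = 0.072). Both calls were lost without replicate 2 at 0 h (edgeR adjusted p of 0.235 and 0.24). The one at 12 h was also lost without any 1 sample at 12 h (0.113 to 0.175), and the one at 18 h without replicate 3 or replicate 2 at 18 h (edgeR adjusted p of 0.179 and 0.184), in a fit of the 2 times alone (0.193) and in DESeq2 (0.105). An antisense gene model that overlaps Icam1, Gm47079, had 648, 54.6 and 499 CPM at 3 h in replicates 1, 3 and 2, and 0 in the other 16 samples. The strand setting of the counting is not given in the sources used here, so reads of the pair cannot be told apart with certainty. The endothelial marker sum was highest in replicate 1 at 3 h, the sample with the lowest Icam1 and the highest Vcam1 of that time. The part of endothelial cells in either level was not tested.

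**Figure D3:**
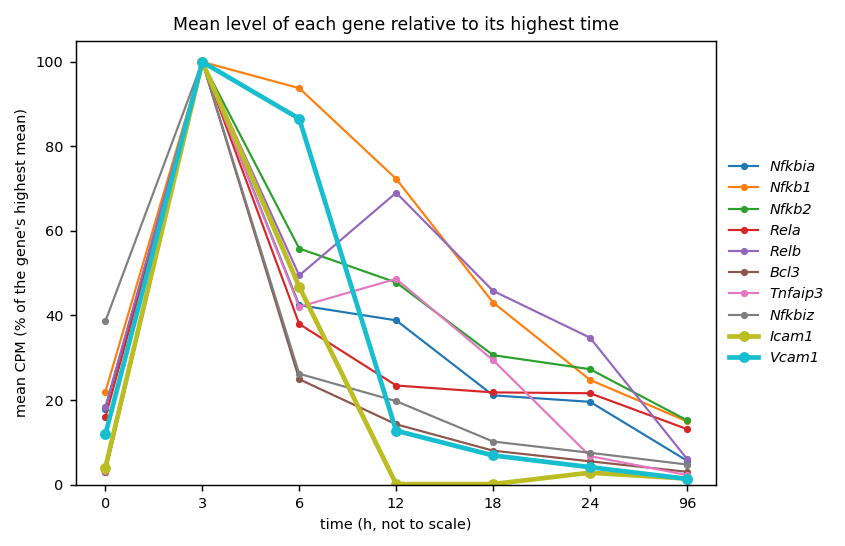
Mean CPM of each gene as a percentage of its highest mean (vertical axis) against time in culture in hours (horizontal axis, evenly spaced), with Icam1 and Vcam1 as thick lines. All lines reach 100% at 3 h; at 6 h Nfkb1 (93.8%) and Vcam1 (86.6%) remain high, and at 12 h Icam1 is at 0.108%.

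The genes left their maximum at different rates. At 6 h the mean was 93.8% of that at 3 h in Nfkb1 and 86.6% in Vcam1, but 26.2% in Nfkbiz and 24.9% in Bcl3. At 12 h Nfkb1 (72.3%) and Relb (69.05%) had the highest shares and Vcam1 (12.7%) and Icam1 the lowest. Between neighbouring times, only a few steps of the members were called, all of them lower. From 3 to 6 h these were Rela and Nfkbiz, 2 of 10, where 1.99% of all genes were called lower. From 6 to 12 h they were Icam1 and Vcam1, where 1.42% of all genes were called lower. No member was called from 12 to 18 h or from 18 to 24 h, where 0.225% and 0.0396% of all genes were called in either direction. At an unadjusted p below 0.05, edgeR had 4 members lower in the first of these steps, and 3 lower and 1 higher in the second, and DESeq2 called 0 and 1 members. The shares of all genes under these other rules are not given here, so these counts cannot be set against the shares above. From 24 to 96 h Nfkbia (-1.79, SE 0.45, edgeR adjusted p = 0.0505), Relb and Vcam1 (-1.60, SE 0.25, adjusted p = 0.00189) were lower, where 1.35% of all genes were called lower. The call of Nfkbia was lost without either sample at 24 h and without replicate 3 or replicate 2 at 96 h (edgeR adjusted p from 0.133 to 0.238). The medium was renewed at 3 h and at 24 h. Age in culture and renewal thus cannot be told apart in the steps from 3 to 6 h and from 24 to 96 h.

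Compared with 0 h, calls went from higher to lower over the 7 times. At 6 h 5 members were called higher (Nfkb1, Nfkb2, Rela, Tnfaip3 and Vcam1), where 6.98% of all genes were. At 12 h 4 were higher (Nfkb1, Nfkb2, Relb and Tnfaip3, background 8.6%) and Icam1 was lower (background 9.1%). At 18 h Nfkb2 and Tnfaip3 were higher (background 7.64%) and Nfkbiz and Icam1 lower (background 8.21%). At 24 h Nfkb2 alone was higher (background 5.65%) and Nfkbiz and Vcam1 were lower (background 3.86%). At 96 h none was higher (background 5.83%) and Nfkbia, Nfkbiz and Vcam1 were lower (background 5.03%). At an unadjusted p below 0.05, edgeR had 1 member higher and 4 lower at 96 h, and DESeq2 called 1 higher and 4 lower. These backgrounds do not apply to those other rules, for which the shares of all genes are not given here. The median log2 fold change of the members went from 2.86 at 3 h to 2.48, 1.42, 0.72, 0.31 and -1.02 at 96 h, with the median of all genes between 0.00 and 0.07. When all times were tested together, 10 of 10 members varied (adjusted p from 5.46e-10 for Vcam1 to 0.0262 for Bcl3 in edgeR), as did 27.4% of all genes.

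Over the 19 samples, the log2 CPM of the members varied together to a differing degree. The Pearson r of the 45 pairs had a median of 0.685, from 0.112 for Nfkb2 and Nfkbiz to 0.937 for Nfkb1 and Tnfaip3. Among the other genes averaging 10 CPM or more, Ifnar2, a receptor subunit for type I interferon, was the most like Vcam1 (r = 0.977). Mcl1, a survival gene of the Bcl-2 family, was the most like Nfkbiz (r = 0.959), and Trib1, a pseudokinase, the most like Nfkbia (r = 0.945). Errfi1, a feedback inhibitor of the epidermal growth factor receptor, was the most like Nfkb1 (r = 0.952), and Ifrd1 the most like Tnfaip3 (r = 0.953). Icam1 had no gene above 0.888, which was Wdr26, and Bcl3 none above 0.859, which was Zc3h12a, a ribonuclease of inflammatory transcripts. For the other members the first genes were Lrrfip2 for Nfkb2 (r = 0.957), Ist1 for Rela (r = 0.921) and Gch1 for Relb (r = 0.925). These samples share replicate numbers and a common time course, and the values are descriptions.

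The rest of the pathway was read from 5 lists of textbook genes. Of 11 tested genes for other subunits and inhibitors, 3 were higher at 3 h and none lower, against 4.19% of all genes called higher, and their median log2 fold change was 1.92. Tnip1, whose protein works with A20, went from 33.7 ± 14.03 CPM at 0 h (mean and SD of 2 samples) to 1251 ± 110.2 CPM at 3 h (3 samples), a change of 5.23 (SE 0.44, edgeR adjusted p = 3.96e-06), and was called higher at all 6 times. Rel, the subunit known from lymphocytes, went from 20.05 to 199.8 CPM (3.32, SE 0.49, edgeR adjusted p = 0.00063), and Nfkbib, the inhibitor IκBβ, from 43.6 to 165 CPM (1.92, SE 0.34, adjusted p = 0.00259). Both were also called at 6 and 12 h. The ubiquitin ligase gene Itch was lower at 12 h, with means of 134 CPM at 0 h and 50.5 CPM, and so was Cyld, a deubiquitinase outside the naming rule that was picked after its values were seen, with 94.3 and 30.8 CPM.

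Of the 11 receptor genes, 2 were higher at 3 h (background 4.19%), with a median of 0.46 over the list. Tnfrsf12a, the receptor of TWEAK, was at 6.39 CPM at 0 h and 289 CPM at 3 h (5.50, SE 0.35, edgeR adjusted p = 2.25e-07), and its means stayed between 327 and 501 CPM from 6 to 96 h, called at all 6 times. Il1r1, the signalling receptor of interleukin 1, was higher at 3 h (from 90.5 to 327 CPM, log2 fold change 1.86, SE 0.29, edgeR adjusted p = 0.00105) and at 6 h. Tnfrsf1b was lower at 24 and 96 h, with 118 and 68.5 CPM against 243 CPM at 0 h, and Tlr3 at 12 h. Of the 16 adaptors and kinases, 1 was higher at 3 h, a share near the background of 4.19%, and the median of the list was 0.15. That gene was Myd88, the adaptor of Toll-like and interleukin 1 receptors, at 35.2 CPM before and 169 CPM after 3 h (2.25, SE 0.37, edgeR adjusted p = 0.00137). Traf6 was higher at 6, 12 and 18 h, Chuk, a catalytic kinase of the complex, at 12 h, and Irak1 was lower at 96 h.

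Other known targets of the pathway were the list with the most calls, 8 of 16 genes tested at 3 h, all higher (background 4.19%), with a median of 2.34. The chemokine gene Cxcl1 measured 362 and 427 CPM at 0 h and 6231, 9054 and 5956 CPM at 3 h (4.17, SE 0.50, edgeR adjusted p = 9.96e-05), stayed at a mean of 5671 CPM at 12 h, and was lower than at 0 h at 96 h (26.9 to 43.2 CPM). Ccl2, the monocyte chemokine, went from 187 CPM to 2859 CPM at 3 h (3.94, SE 0.34, edgeR adjusted p = 5.38e-06) and had its highest mean, 5795 CPM, at 12 h. Csf1, the growth factor of macrophages, likewise had its highest mean at 12 h (3599 CPM) and was called at all 6 times. Tnfaip2 had its highest mean at 3 h, like the members, with 21.04 CPM at 0 h, 588 CPM at 3 h and 201 CPM at 6 h (4.79 at 3 h, SE 0.62, edgeR adjusted p = 0.000191). Against this, Cxcl10 and Il1b, both picked after their values were seen, were lower at 5 and 4 of the 6 times. Cxcl10 had a mean of 534 CPM at 0 h, 487 CPM at 3 h and 32.0 CPM at 12 h, and Il1b 79.7 CPM at 0 h, 17.5 CPM at 3 h and 0 from 12 h on. The sum of Kupffer cell markers given above was also lower from 6 h on, and its part in these changes was not tested. The transcripts of Tnf were at most at a mean of 18.3 CPM and those of Il6 at 11.5 CPM, and neither of these genes, also picked after their values were seen, was called at any time.

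Of 8 other adhesion molecules tested, none was called at 3 h, and their median was 1.21. Alcam, another immunoglobulin-like adhesion molecule, was lower from 6 h on, with means of 240 CPM at 0 h, 79.3 CPM at 6 h and 5.10 CPM at 24 h. From 24 to 96 h Alcam was called higher (2.62, SE 0.51, edgeR adjusted p = 0.0102), to a mean of 31.3 CPM, still below 0 h. F11r was higher at 96 h than at 0 h (86.2 against 27.9 CPM). The endothelial adhesion genes Sele and Selp, picked in the same way, had means of at most 31.5 and 10.2 CPM and were not called.

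**Figure D4:**
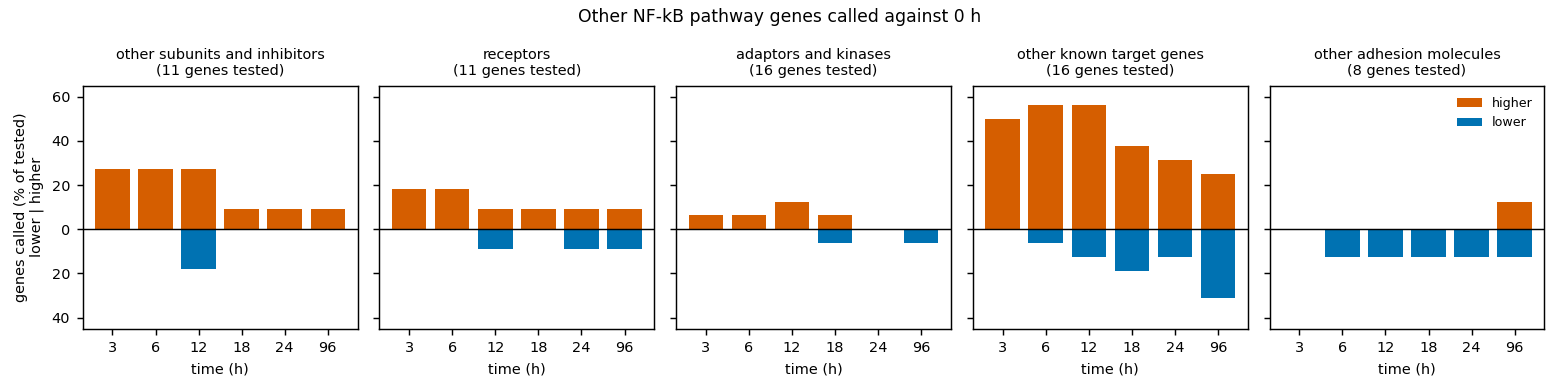
Share of the tested genes of each list called higher (orange, upward) or lower (blue, downward) than at 0 h, in percent, at each time in hours. The other known targets have 8 of 16 genes higher at 3 h and 9 of 16 at 6 and 12 h, and the adaptors and kinases no more than 2 of 16 higher at any time.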

How the data were processed

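RNASeq counts of 19 samples were analysed. The authors deposited raw counts per gene, whole numbers without normalization, from single-end reads of a 3′ mRNA library kit (QuantSeq FWD), aligned by STAR to the mouse build GRCm38.p6, with StringTie for gene and transcript models. The counting tool, its annotation and its strand setting are not given in the sources used here. Since such libraries read the 3′ end, 1 tag stands for 1 transcript without regard to length. Row identifiers were matched to symbols of GENCODE M21 (55141 of 55487 rows).

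Samples were grouped by the culture time in their labels. Genes passing filterByExpr of edgeR 4.0.16 (R 4.3.3) were TMM-scaled and fitted in one quasi-likelihood model of all 19 samples with time as the only term, and p-values were adjusted by Benjamini-Hochberg over 15138 genes. Calls needed an adjusted p under 0.1 together with more than a 2-fold difference. Replicates each pool 2 technical repeats, and p-values measure the spread between these samples. Total counts of 2073171 to 7690892 set the counting precision, and intervals of reads without molecular identifiers would cover counting error only. On log2 CPM, replicates of one time correlated at r = 0.768 at 0 h and 0.802 to 0.868 elsewhere.

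The replicate number in the labels pairs samples across times through the isolation date, which is the same for all samples of a number. Whether numbers 1 and 3, of one date, are separate isolations is not given. Deviations from the time means had a mean correlation of 0.0143 over 51 pairs of the same number and -0.00704 over 103 pairs of different numbers. Alternatives were scaling on library size, no filter, the replicate number as a block, the isolation date as a covariate, a fit of only the 2 times compared, counts thinned to 2073171, DESeq2 1.42.0, an adjusted p below 0.05, and leaving out each sample. Genes named were the 10 members, up to 4 genes of each list called against 0 h at most times, and the genes with the highest Pearson r to a member, of which the first is given. Cyld, Cxcl10, Il1b, Tnf, Il6, Sele and Selp were added after their values were seen. The members, lists and tests were chosen with earlier results of these data known. Tables and plots were made with pandas 2.3.3 and matplotlib 3.10.9. The in vivo samples of the study were not used here.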

Additional observations from a re-analysis of the deposited data

How the results depend on the processing

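The 2 samples at 0 h, one at 2073171 counts, limit every comparison with that time, and leaving out one of them leaves a lone sample that is assumed to vary like the others. For the 50 fold changes given in the text, 372 of 400 values under other settings and 913 of 950 values with one sample left out kept their direction and their side of the threshold, 28 and 37 changed side, and none changed direction. The cause of these changes was not tested, except that the stricter threshold calls fewer genes by construction.

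With an adjusted p below 0.05, the members called were 3 instead of 5 at 12 h against 0 h and 1 instead of 3 at 96 h against 24 h, and the other adhesion molecules called were 1 instead of 2. In a fit of only the 2 times compared, the members called were 2 instead of 4 at 18 h against 0 h and 5 instead of 2 at 6 h against 3 h. With the isolation date as a covariate, 5 instead of 3 were called at 96 h against 0 h. DESeq2 called 5 members at 96 h against 0 h, 4 at 6 h against 3 h and 1 (Tnfaip3) at 24 h against 18 h, and among the lists 8 instead of 5 adaptors and kinases and 4 other adhesion molecules. Without the filter on low counts 1 other adhesion molecule was called. The shares of all genes called under these settings are not given here, so the counts describe the dependence on the settings only.

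With the replicate number as a replicate block, 8 members were called at 3 h against 0 h, 6 at 6 h and 3 at 6 h against 3 h. The block added Nfkbia at 6 h against 0 h and against 3 h and Nfkb1 at 18 h against 0 h, took no call of a member away, and no count of calls of the members or lists moved by more than 1.5 times.

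Leaving out one sample at a time gave 3 to 6 members at 12 h against 0 h (3 without replicate 2 at 12 h), 1 to 2 at 12 h against 6 h (1 without any sample of 12 h), 0 to 1 at 18 h against 12 h (1 without replicate 3 at 18 h) and 1 to 3 at 96 h against 24 h (1 without either sample of 24 h). The lists gave 3 to 6 other subunits and inhibitors, 2 to 6 adaptors and kinases and 1 to 3 other adhesion molecules, each lowest without a sample at 0 h, and the last also without replicate 1 or 2 at 96 h.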
